A study of Homo sapiens with 48 samples.

Results

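The comparison described here sets 3 libraries of Oci-Ly7 cells treated with 2 inhibitors together against 3 libraries of Oci-Ly7 cells treated with the vehicle, 6 of the 48 RNA sequencing libraries of the series, over all genes. Members were taken by their column names, which give the line, the treatment and the replicate. Oci-Ly7 is an established human lymphoma line, a large B cell lymphoma with germinal centre features, so every value below describes 1 line and not the disease. The groups are Oci-Ly7 with DMSO, the vehicle, and Oci-Ly7 with the DOT1L inhibitor EPZ-5676 (DOT1Li) plus the EZH2 inhibitor GSK343 (EZH2i) for 6 days, called the combination. Cells were reseeded at day 3 in fresh medium with the compounds. For comparison there are Oci-Ly7 with DOT1Li alone (3 libraries) and Oci-Ly7 with EZH2i alone (3 libraries). DMSO and combination libraries of Oci-Ly8, SUDHL6 and Oci-Ly18 (18 libraries) are also compared. All 48 libraries, with the single treatments of those lines, were fitted together. Each of them therefore enters the filter on genes and the spread behind the p-values. The sources used here do not give doses. Whether replicates came from separate cultures is not stated. The p-values cover no more than how far replicate libraries within the 16 groups differ from each other, which may be technical.

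DOT1L places methyl groups on histone H3 within transcribed genes. EZH2 is the enzyme within Polycomb repressive complex 2 (PRC2) that methylates another site on histone H3 and keeps genes silent. Germinal centre B cells carry high EZH2, and the factor BCL6 holds them in that state, while PRDM1, which encodes BLIMP1, drives their exit towards plasma cells. The study asked how blocking both enzymes acts on this cell identity.

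The 6 libraries held 14555102 to 18845074 counts, with 19662 to 21778 genes detected in each. Levels are in CPM, counts divided by the scaled library total. A group with 0 counts in all 3 libraries could still hold up to 3 counts, which is 0.0632 CPM in DMSO, and a fold against such a group is given as a lower bound. Such floors cover counting error only. Among B cell markers MS4A1 (CD20) ran from 1010 to 1430 CPM over the 6 libraries and PAX5 from 178 to 202 CPM. The germinal centre markers BCL6, MYBL1 and MME were all present, while SERPINA9 was at most 0.135 CPM and LMO2 at most 0.591 CPM. The plasma cell marker SDC1 had 0 counts in all 12 Oci-Ly7 libraries. The numbers of cells and the RNA made per cell cannot be told apart in bulk libraries.

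With the combination 3134 of 17749 genes tested (17.7%) rose and 2163 (12.2%) fell, at an adjusted p under 0.05 in edgeR's quasi-likelihood test. Either call was made for 29.8% of the genes. Rises led by less in number where fewer libraries were fitted. With the 12 Oci-Ly7 libraries alone 3062 of 13985 genes tested rose and 2858 fell. With the 6 compared libraries alone 2963 rose and 2838 fell. The shares of 17.7% and 12.2%, from the fit on all 48 libraries, are the background for all counts of list members given below. They are not matched for level. In DMSO, genes above 50 CPM fell in 29.1% of cases and genes above 0 and up to 0.5 CPM in 0.221%. A list of highly expressed genes can therefore pass 12.2% without passing the share at its own level. Rises were the larger changes: the median log2 fold change of the genes that rose was 0.77, or 0.76 with genes at 0 counts in one group set at their bound, and that of the genes that fell was -0.39. A log2 fold change of at least 1 was reached by 1265 genes that rose (7.13%) and 231 that fell (1.3%). With genes at 0 counts set at their bound the first number was 1241. The median over all genes tested was 0.03. In 4401 genes (24.8%) every combination library lay above every DMSO library, and in 3430 genes (19.3%) every one lay below.

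**Figure D1:**
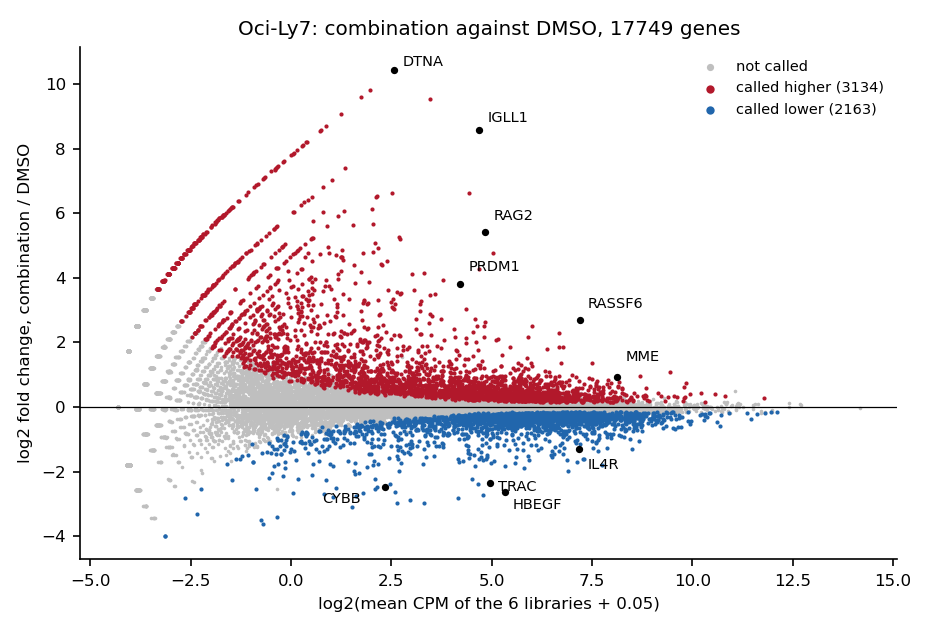
Log2 fold change of the combination over DMSO in Oci-Ly7 (vertical axis) against log2 of the mean level of the 6 libraries in CPM plus 0.05 (horizontal axis); each point is 1 of 17749 genes. Red points are the 3134 genes that rose, blue the 2163 that fell, and grey those that passed in neither direction; the diagonal lines of points at the left are genes with few counts, whose fitted fold change depends on the prior count.

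Replicate 1 of the combination lay nearer to DMSO than the other 2. Of the 5297 genes called it was the combination library nearest to the DMSO mean in 64.4%, against 12.5% for replicate 2 and 23.1% for replicate 3. The median shift of called genes in their called direction was 0.45 in replicate 1, 0.58 in replicate 2 and 0.55 in replicate 3. Replicate 1 of DOT1Li stood apart in the same way, nearest in 63.8% of these genes, with a median shift of 0.08 against 0.22 and 0.20. The EZH2i libraries showed no such order, with shifts of 0.29 to 0.30. What sets replicate 1 apart was not tested. Without combination replicate 1, 3015 genes rose and 2078 fell.

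The targets of both compounds are enzymes, so their transcripts do not check the labels. EZH2 (ENSG00000106462, GRCh38 chromosome 7, 148807257 to 148884321) stood at 242, 245 and 247 CPM in DMSO and at 271, 276 and 279 CPM with the combination. The groups do not overlap, and EZH2 rose by a small amount (log2 fold change 0.17 ± 0.06 SE, adjusted p = 0.0252). That call was lost without DMSO replicate 1 (adjusted p = 0.0778), 2 (0.0588) or 3 (0.0516) and without combination replicate 2 (0.0668) or 3 (0.0812). DOT1L (chromosome 19, 2163933 to 2232578) went from 127 ± 3.34 to 115 ± 3.18 CPM (SD, n = 3) without overlap and did not pass (log2 fold change -0.13 ± 0.08 SE, adjusted p = 0.216). It passed where the 12 Oci-Ly7 libraries (adjusted p = 0.0455) or the 6 compared libraries (0.0299) were fitted alone. Of 13 subunits and partners of PRC2 tested, 4 rose and 3 fell, against 17.7% and 12.2% of all genes tested. JARID2, which helps recruit the complex, rose from 64.5 to 101 CPM, and MTF2, another accessory subunit, fell from 117 to 95.5 CPM. Of 20 genes for DOT1L and its partners in transcription elongation, 3 rose and 3 fell. The largest change there was a fall of EAF2, a partner of the ELL elongation factors, from 40.1, 36.9 and 36.6 CPM to 10.9, 6.11 and 6.86 CPM.

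PRDM1 (ENSG00000057657, chromosome 6, 105993463 to 106109939) was at 2.92, 2.47 and 2.02 CPM in DMSO and at 23.6, 40.6 and 40 CPM with the combination. All 3 combination libraries lie far above DMSO, with replicate 1 the lowest, a 14-fold rise (log2 fold change 3.81 ± 0.27 SE, adjusted p = 3.17e-14). DOT1Li alone gave 3.04, 8.45 and 8.44 CPM and EZH2i alone 7.28, 6.90 and 9.03 CPM. Both single treatments were therefore between DMSO and the combination, and DOT1Li replicate 1 lay close to DMSO.

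Germinal centre genes moved in both directions and fell more often than they rose. Of 37 tested 8 rose and 16 fell, against 17.7% and 12.2% of all genes tested. The median log2 fold change was -0.04. That median moved with single libraries, to -0.19 without DMSO replicate 2, -0.14 without combination replicate 3 and -0.11 without combination replicate 1. It was -0.2 in the fit on the 12 Oci-Ly7 libraries alone. BCL6 (ENSG00000113916, chromosome 3, 187721377 to 187745725) stood at 218, 188 and 220 CPM in DMSO and 156, 109 and 130 CPM with the combination. Every combination library lay below every DMSO library (log2 fold change -0.66 ± 0.12 SE, adjusted p = 3.33e-05). MYBL1, a MYB family transcription factor of this stage, fell from 164, 195 and 187 CPM to 107, 72.1 and 82.5 CPM. The groups do not overlap, and the log2 fold change was -1.06 ± 0.12 SE (adjusted p = 6.21e-09).

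Other factors and signalling genes of the germinal centre fell with BCL6. IRF8, a transcription factor of this stage, fell from 290 to 113 CPM, and STAP1, an adaptor of B cell receptor signalling, from 159 to 65.9 CPM. S1PR2, the receptor that confines B cells to the follicle, went from 32.6, 32.7 and 42.5 CPM to 14.5, 12.2 and 16.6 CPM, with no overlap. In the same list MME (CD10), a surface peptidase used to diagnose this lymphoma type, rose. It was at 196, 204 and 180 CPM in DMSO and 350, 397 and 352 CPM with the combination (log2 fold change 0.92 ± 0.11 SE, adjusted p = 6.27e-09). EBF1, an early B cell factor, rose from 37.3, 42.3 and 40.4 CPM to 70.6, 81.2 and 68.5 CPM (log2 fold change 0.87 ± 0.07 SE, adjusted p = 5.97e-14). Both MME and EBF1 were high in all 3 combination libraries without overlap. RASSF6, a RAS association domain gene, had the largest rise of the list, from 36.5, 41.1 and 40.3 CPM to 217, 281 and 263 CPM.

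Pan-B genes mostly fell: 3 of 25 tested rose and 16 fell, and the median log2 fold change was -0.40. BLK, a SRC family kinase of B cells, went from 170, 188 and 182 CPM to 83.3, 38.8 and 49.6 CPM. The groups lie well apart (log2 fold change -1.65 ± 0.13 SE, adjusted p = 9.61e-13). The surface proteins CD37, CD22 and MS4A1 fell, to 56.8 CPM for CD37 and 1070 CPM for MS4A1, with log2 fold changes of -1.24, -0.72 and -0.40. PAX5, the factor that holds B cell identity, did not pass (log2 fold change -0.03 ± 0.10 SE, adjusted p = 0.872). CD79A, a chain of the B cell receptor, was among those that rose, from 398 to 485 CPM. The summed level of the 26 listed genes was 5860 to 6020 CPM in DMSO and 4420 to 5070 CPM with the combination.

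Plasma cell genes did not follow PRDM1. Of 33 tested 4 rose and 18 fell, with a median of -0.34, and without DMSO replicate 2 or combination replicate 2 only 2 rose. IRF4, which acts with BLIMP1 in plasma cells, fell from 229, 218 and 213 CPM to 129, 108 and 98.6 CPM. These groups do not overlap (log2 fold change -0.98 ± 0.13 SE, adjusted p = 1.17e-07). CD38, a surface enzyme of germinal centre and plasma cells, fell from 103 ± 0.722 to 63.1 ± 4.61 CPM (SD, n = 3). JCHAIN, the joining chain of secreted antibodies, fell from 1030 to 666 CPM (adjusted p = 0.0105), a call lost without combination replicate 2 (adjusted p = 0.0555). XBP1, the factor of the secretory programme, was at 531, 496 and 423 CPM in DMSO and 488, 570 and 429 CPM with the combination. The XBP1 groups overlap, and the difference did not pass (log2 fold change 0.04 ± 0.11 SE, adjusted p = 0.889).

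**Figure D2:**
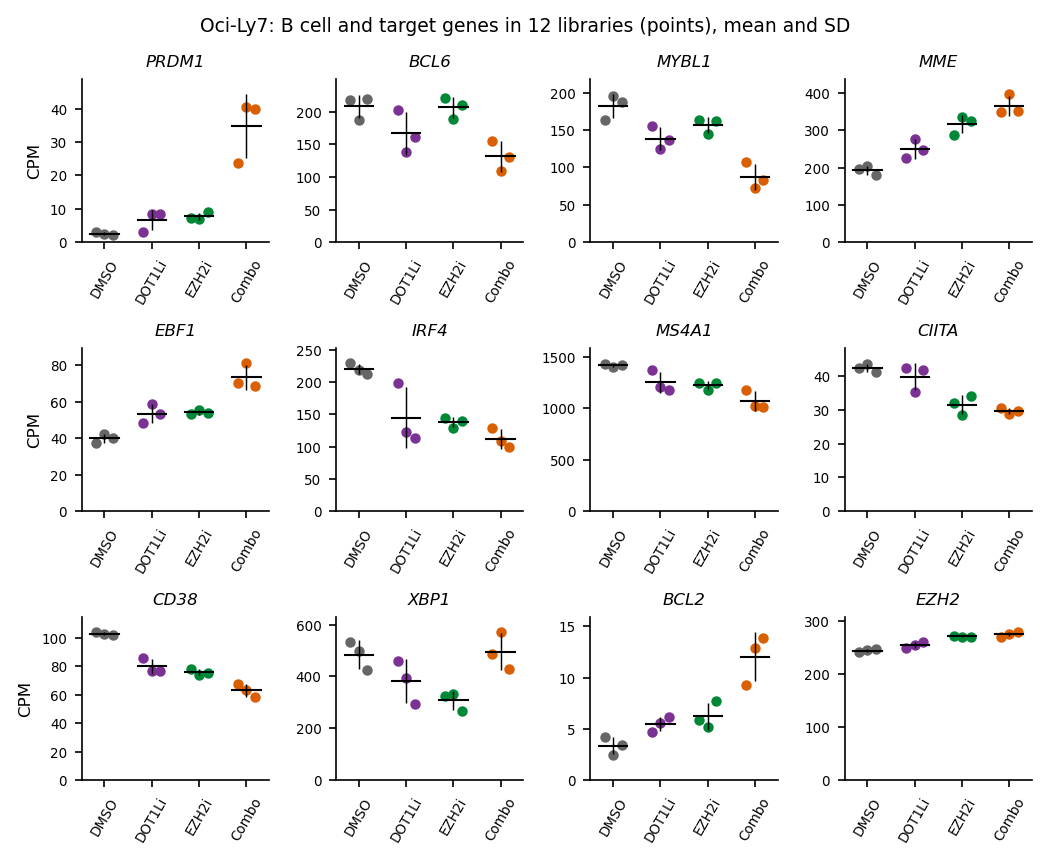
Levels of 12 genes in CPM (vertical axes, linear from 0) in the 12 Oci-Ly7 libraries by treatment, with each library a point, the mean a horizontal bar and the SD a vertical bar. PRDM1 was highest in all 3 combination libraries, BCL6, MYBL1, IRF4, MS4A1 and CD38 were lower there than in DMSO, and XBP1 was lowest with EZH2i alone.

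Memory and germinal centre exit genes rose more often than they fell, 10 against 3 of 24 tested, with a median of 0.59, or 0.41 with genes at 0 counts set at their bound. Without DMSO replicate 3 only 6 rose. CCR7, the receptor that leads lymphocytes to T cell zones, went from 1.04, 0.439 and 0.472 CPM to 5.69, 6.94 and 6.33 CPM. ZEB2, a transcription factor of differentiated B cells, went from 5.63, 6.09 and 5.59 CPM to 15.4, 24.8 and 22 CPM, and TNFRSF13C, the receptor for the survival factor BAFF, from 11.5 to 38.7 CPM. All 3 genes are free of overlap between groups. In the same list ITGB7, an integrin of lymphocyte homing, fell from 150, 123 and 132 CPM to 53.6, 38.2 and 47.3 CPM. Of 21 genes known as PRC2 targets in germinal centre B cells, 7 rose and 5 fell; PRDM1 and the cell cycle inhibitor CDKN1C rose, and IRF4 and CIITA fell. CDKN1C had 0 counts in DMSO and 0.481 CPM with the combination, at least 7.61-fold higher. CDKN1A (p21) stayed near 0 with 0.110 CPM in DMSO and 0.182 CPM with the combination (adjusted p = 0.767).

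Genes at or near 0 in DMSO held many of the large rises. Of 1683 tested genes with 0 counts in all 3 DMSO libraries, 188 (11.2%) rose, 160 of them protein coding and 25 long noncoding. The reverse was rare: of 1017 genes with 0 counts in all 3 combination libraries, 2 (0.197%) fell. Most of the 188 stayed low, with a median of 12 counts summed over the combination libraries and 27 at a mean of at least 1 CPM. Set against the floor their median rise was at least 3.85-fold, and 172 of them had counts in every combination library. The number depends on the libraries fitted: a filter on the 12 Oci-Ly7 libraries alone tests 26 of the 188 and calls all 26, and 28 such genes are called in that fit. With 0 counts in DMSO, a gene passes that filter only through treated libraries in which it is high. The 26 calls are therefore no separate support for the rise.

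DTNA, which encodes the cytoskeletal protein dystrobrevin alpha, had the largest bound. DTNA (ENSG00000134769, chromosome 18, 34493291 to 34891844) had 0 counts in DMSO and stood at 7.84, 11.3 and 16.1 CPM with the combination, at least 186-fold higher (adjusted p = 1.33e-14). EZH2i alone gave 2.73, 4.14 and 3.54 CPM and DOT1Li alone 0.0596, 0.243 and 0.697 CPM. AGR2, a protein disulfide isomerase of secretory epithelia, was at 2.03, 9.07 and 8.69 CPM with the combination, at least 104-fold higher. It was at most 0.0697 CPM with DOT1Li and at most 0.122 CPM with EZH2i, so it was seen at over 1 CPM in the combination libraries alone. The call for AGR2 is lost where the 6 compared libraries are fitted alone (adjusted p = 0.0733). ASAP2, an ARF GTPase activating protein, reached 4.96, 11 and 7.39 CPM, at least 123-fold higher, and C7, the complement component, 2.54, 6.17 and 5.20 CPM, at least 73.4-fold higher. The other 4 genes with the largest bounds were PROX1, CHRNA1, PTPRZ1 and FAM171A1, at 2.53 to 3.54 CPM with the combination and at least 40.1 to 56.0-fold higher. DESeq2 did not call C7 (adjusted p = 0.534) or PROX1 (0.561).

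**Figure D3:**
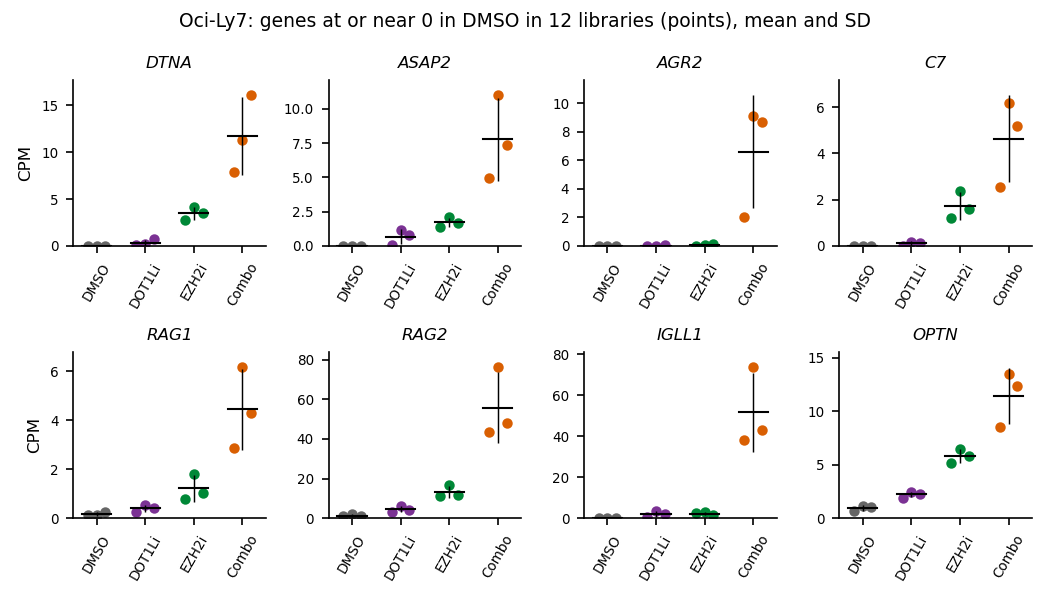
Levels in CPM (vertical axes, linear from 0) of 8 genes at or near 0 in DMSO, in the 12 Oci-Ly7 libraries by treatment; points are libraries, the horizontal bar is the mean and the vertical bar the SD. Combination replicate 1 is the lowest of the 3 combination points in each gene. The mean of EZH2i alone lies above that of DOT1Li alone in DTNA, ASAP2, C7, RAG1, RAG2 and OPTN, and also in AGR2, where both are near 0.

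Promoters of the genes that rose from silence ranged from CpG islands to windows almost free of CpG, and 3 are shown for that contrast. Each runs from 250 bases before to 50 after the RefSeq start (GRCh38.p14, plus strand), with each CpG in capitals. The ASAP2 window (chr2:9206562-9206861) holds 60 CpG and the C7 window (chr5:40909247-40909546) 2. The window of CYBB (chrX:37779809-37780108), which fell, holds 1.
ASAP2: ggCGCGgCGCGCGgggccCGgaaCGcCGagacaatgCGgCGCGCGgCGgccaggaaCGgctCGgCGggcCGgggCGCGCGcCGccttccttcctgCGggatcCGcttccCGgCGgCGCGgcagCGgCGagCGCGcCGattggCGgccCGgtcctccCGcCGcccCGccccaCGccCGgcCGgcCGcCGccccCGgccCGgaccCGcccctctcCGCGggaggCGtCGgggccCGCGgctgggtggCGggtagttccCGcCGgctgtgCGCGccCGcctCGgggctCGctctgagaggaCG
C7: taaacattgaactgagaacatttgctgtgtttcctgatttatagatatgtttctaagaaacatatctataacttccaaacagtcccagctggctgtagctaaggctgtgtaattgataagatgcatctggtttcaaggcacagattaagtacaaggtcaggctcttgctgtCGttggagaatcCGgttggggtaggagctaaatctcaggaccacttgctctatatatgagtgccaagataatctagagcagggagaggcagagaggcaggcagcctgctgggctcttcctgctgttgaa
CYBB: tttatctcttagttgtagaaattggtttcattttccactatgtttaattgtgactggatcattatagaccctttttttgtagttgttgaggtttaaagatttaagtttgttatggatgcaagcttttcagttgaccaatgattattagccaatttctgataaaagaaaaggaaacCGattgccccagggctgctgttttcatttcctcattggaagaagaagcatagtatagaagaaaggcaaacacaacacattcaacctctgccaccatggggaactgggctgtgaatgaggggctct
Over the 10921 of 13502 tested protein-coding genes with such a window (80.9%), the median was 26 CpG. It was 21 in genes that rose by at least 1 on the log2 scale and 29 in those that rose by less. It was 13.5 in genes that fell by at least 1 and 26 in those that fell by less. Genes with 0 to 4 CpG rose by at least 1 in 18.4% of cases, against 6.1% of those with 25 or more. Among genes at 0.5 CPM or less in DMSO these shares were 32.6% and 20.7%.

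The level in DMSO went with the direction of change. Genes above 0 and up to 0.5 CPM rose by at least 1 in 22.5% of cases and fell by at least 1 in 0.221%. Genes above 50 CPM rose by any amount in 11.9% of cases and fell in 29.1%, and they rose by at least 1 in 0.119% and fell by at least 1 in 1.26%. Small falls can be called only where counts are high, so the shares at low level are limited by depth. The same DMSO libraries set both the level and the fold change, and genes near 0 can hardly fall. Genes low in DMSO can also pass the filter through other groups in which they are higher. How much of the pattern is built in by this was not tested.

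Among protein-coding genes already at 5 CPM or more in DMSO, RASSF6 had the largest rise. The next were BTBD3, a dendrite patterning gene, with 8.27, 6.42 and 9.37 CPM in DMSO and 38.8, 57.0 and 52.0 CPM with the combination, and PTMS, CPNE2, SPATS2L, RAP1GAP2, LRP4 and MELTF. These 8 rose between 4.53-fold for MELTF and 6.44-fold for RASSF6. LRP4, a receptor of the LDL receptor family, went from 34.5, 38.5 and 31.7 CPM to 155, 191 and 163 CPM (log2 fold change 2.28 ± 0.11 SE, adjusted p = 2.19e-20).

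The largest falls at that level included innate immune and signalling genes. CD180, a Toll-like receptor relative on B cells, went from 19.7, 17 and 16.2 CPM to 2.37, 2.76 and 1.66 CPM. The CD180 groups lie far apart (log2 fold change -2.96 ± 0.21 SE, adjusted p = 2.41e-15). HBEGF, an EGF family ligand, went from 68.7, 67.0 and 71.4 CPM to 14.6, 8.68 and 9.70 CPM, again with no overlap. NLRP4, RIPOR1, PDZRN3, NAPSA, RGS8 and CYBB complete the 8, with log2 fold changes from -2.74 for NLRP4 to -2.47 for CYBB. PDZRN3 was the one of these with a fall under DOT1Li alone (log2 fold change -1.92, adjusted p = 6.88e-05) and none called under EZH2i alone (-0.08, adjusted p = 0.929).

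Developmental genes rose about as often as all genes tested. Of 83 listed transcription factors that PRC2 silences in many tissues 34 had enough counts to be tested. Of these 6 rose and 0 fell, against 17.7% and 12.2% of all genes. All 6 rose by at least 1 on the log2 scale, which 7.13% of all genes did. That share is higher at low level: 11.2% of genes at 0 counts in DMSO and 22.5% of those above 0 and up to 0.5 CPM. Of the 34 genes 12 had 0 counts in DMSO, so 7.13% is not a share at their level. In the fit on the 6 compared libraries 3 of the list rose. SOX2, a factor of embryonic and neural stem cells, was already at 100, 96.6 and 106 CPM in DMSO and rose to 262, 257 and 261 CPM. Of 22 HOX genes 3 rose: HOXB3 from 6.85 to 13.9 CPM, HOXB4 from 16.4 to 25.3 CPM and HOXA7 from 10.9 to 15.6 CPM. The HOXA7 call was lost without DMSO replicate 1 (adjusted p = 0.100), combination replicate 2 (0.117) or combination replicate 3 (0.0899).

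Adhesion and guidance genes had the highest median among the lists of B cell, signalling and regulatory genes, 1.78, or 1.06 with genes at 0 counts set at their bound. Of 32 tested 16 rose and 0 fell; 10 rose in the fit on the 12 Oci-Ly7 libraries. ROBO1 (ENSG00000169855, chromosome 3, 78597239 to 79767998), a receptor for SLIT guidance cues, went from 1.53, 2.85 and 2.49 CPM to 39.7, 77.9 and 73.5 CPM. That is 27.2-fold, with replicate 1 again the lowest of the combination (log2 fold change 4.76 ± 0.35 SE, adjusted p = 6.42e-13). The ephrin receptor EPHB2 went from 0.973, 0.768 and 1.35 CPM to 8.01, 10.7 and 12.8 CPM. NRCAM, a neuronal adhesion molecule, had 0 counts in DMSO and was at least 31.6-fold higher.

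Interferon response genes rose in 24 of 57 tested, against 17.7% of all genes, and fell in 5. The median was 0.79, or 0.62 with genes at 0 counts set at their bound, and 15 rose without DMSO replicate 2. LGALS3BP, a secreted glycoprotein, had the smallest p, going from 1.39, 1.43 and 0.876 CPM to 9.87, 19.4 and 17.3 CPM (log2 fold change 3.63 ± 0.25 SE, adjusted p = 7.61e-15). Many that rose stayed at low levels: IFI44L had 0 counts in DMSO and reached 0.406 CPM, and XAF1 reached 0.951 CPM. MX1, an antiviral GTPase, rose from 6.27 to 13.5 CPM. The genes that fell were expressed higher. OAS1, an antiviral RNA sensor, fell from 48.8, 51.0 and 47.9 CPM to 24, 19 and 20.1 CPM, and the exonuclease gene ISG20 from 149, 147 and 141 CPM to 76.5, 65.6 and 62.4 CPM. With them STAT2 fell from 75.9 to 51.3 CPM. Summed over the list the level was 1490 to 1560 CPM in DMSO and 1430 to 1520 CPM with the combination.

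The windows of IFI44L and LGALS3BP are shown for the interferon motif, GAAA and GAAA with any 2 bases between them, whose matches are in capitals. They come from RefSeq (GRCh38.p14) at chr1:78620198-78620497 on the plus strand and chr17:78979874-78980173 on the minus strand.
IFI44L: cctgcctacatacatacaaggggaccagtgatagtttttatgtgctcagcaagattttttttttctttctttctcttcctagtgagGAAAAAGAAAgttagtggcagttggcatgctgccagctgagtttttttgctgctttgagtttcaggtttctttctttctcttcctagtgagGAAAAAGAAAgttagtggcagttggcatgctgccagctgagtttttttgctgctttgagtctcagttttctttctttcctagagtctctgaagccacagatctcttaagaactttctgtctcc
LGALS3BP: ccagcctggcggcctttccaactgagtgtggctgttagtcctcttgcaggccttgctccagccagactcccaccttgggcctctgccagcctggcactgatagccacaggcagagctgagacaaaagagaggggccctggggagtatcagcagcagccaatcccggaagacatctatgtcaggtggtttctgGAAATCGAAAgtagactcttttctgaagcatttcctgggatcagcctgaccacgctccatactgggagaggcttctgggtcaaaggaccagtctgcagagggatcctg
On both strands the motif was found in 13 of the 19 windows matched to interferon genes that rose, 16 of 21 of those that passed in neither direction and 1 of 4 of those that fell. Of all 27305 windows 3.65% hold it. The difference between these groups was not tested.

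MHC class II genes, which present antigen to helper T cells, fell: 12 of 19 tested fell and 1 rose, with a median of -0.43. Their master regulator CIITA (ENSG00000179583, chromosome 16, 10866222 to 10943021) went from 42.5, 43.8 and 41.3 CPM to 30.7, 28.9 and 29.8 CPM. The groups do not overlap (log2 fold change -0.51 ± 0.11 SE, adjusted p = 0.00023). The invariant chain CD74 went from 1140, 1180 and 1170 CPM to 818, 769 and 831 CPM. HLA-DPA1 fell from 192 to 141 CPM and HLA-DRA from 210 to 175 CPM; HLA genes share sequence, so counting can move reads between them. MHC class I genes were split, with 6 of 20 higher and 8 lower. HLA-C fell from 901 to 577 CPM, while NLRC5, the activator of these genes, rose from 59.5 to 84.1 CPM.

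B cell receptor signalling genes fell in 22 of 36 and rose in 6, with a median of -0.32. The kinase LYN went from 198, 208 and 201 CPM to 108, 85.1 and 78.9 CPM, and the adaptor GRAP from 132, 129 and 130 CPM to 64.6, 41.5 and 45.1 CPM. Both are free of overlap, with adjusted p-values of 2.36e-13 and 6.84e-12. BTK, PLCG2 and VAV1 also fell, by 0.61, 0.51 and 0.60 on the log2 scale. Among the 6 that rose MALT1, the paracaspase of the pathway, went from 117 to 154 CPM. The phagocyte NADPH oxidase, which makes superoxide, had 6 of 8 genes lower and 0 higher. Its catalytic subunit CYBB went from 10.1, 8.12 and 7.14 CPM to 1.41, 1.74 and 1.42 CPM.

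Cytokine receptors were split, with 7 of 32 higher and 9 lower, against 17.7% and 12.2% of all genes tested. IL4R, the interleukin 4 receptor, went from 210, 197 and 214 CPM to 105, 66.5 and 82.1 CPM, and IL21R, the receptor for a T follicular helper cytokine, from 62.7 to 17.5 CPM. TGFBR1 rose from 48.5, 51.9 and 52.1 CPM to 103, 120 and 104 CPM. Without DMSO replicate 2, the number of cytokine receptors that rose was 3. Of 25 NF-kB subunits and targets 8 rose and 5 fell, so the list went both ways. Among its members NFKBIZ (9.12 to 25.4 CPM), NFKBIA (21.9 to 33.8 CPM) and TNFAIP3 (42.2 to 62.7 CPM) rose. BIRC3 (262 to 125 CPM) and BCL2A1 (3.53 to 0.489 CPM) fell. Of 24 migration and adhesion genes of lymphocytes 4 rose and 10 fell.

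Genes of protein supply fell. Of 31 genes of amino acid supply and unfolded protein stress 19 fell and 1 rose, with a median of -0.45. SLC7A5, the light chain of the leucine transporter, went from 375, 312 and 312 CPM to 156, 119 and 135 CPM, and its partner SLC3A2 from 205, 194 and 196 CPM to 117, 101 and 116 CPM. ATF4, the factor that drives this programme, fell from 641 to 444 CPM and the chaperone HSPA5 from 930 to 585 CPM. Of 36 MYC and nucleolar genes 20 fell and 0 rose, with a median of -0.23; without combination replicate 2, 13 fell. NOLC1, a nucleolar phosphoprotein, went from 692, 726 and 714 CPM to 532, 488 and 518 CPM. MYC itself was at 237, 197 and 211 CPM in DMSO and 224, 164 and 175 CPM with the combination. These groups overlap (log2 fold change -0.19 ± 0.09 SE, adjusted p = 0.112), and without combination replicate 1 MYC passed at -0.34 (adjusted p = 0.00445).

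Cell cycle genes did not move together: 7 of 45 rose and 11 fell, all by less than 1 on the log2 scale, and 7 fell without DMSO replicate 2 or 3 or combination replicate 2 or 3. The replication helicase gene MCM6 fell from 417, 437 and 435 CPM to 329, 307 and 316 CPM, and TOP2A, the topoisomerase of mitosis, rose from 1010, 1020 and 984 CPM to 1340, 1400 and 1350 CPM. Of 15 CDK inhibitors, D-type cyclins and their partners 5 rose and 0 fell. The kinase CDK6 rose from 55.8 to 109 CPM, RB1, the retinoblastoma protein, from 179 to 294 CPM and the inhibitor CDKN2C from 80.8 to 109 CPM. Of 30 p53 genes 7 rose and 7 fell, and 4 fell without combination replicate 2. Of 24 glycolysis genes 4 rose and 5 fell, with 3 lower without DMSO replicate 1. Of 24 cholesterol genes 1 rose and 7 fell, and the second number ran from 2 without combination replicate 3 to 11 without combination replicate 1.

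BCL2 family genes, which set the threshold of apoptosis, rose in 4 of 15 and fell in 4, against 17.7% and 12.2% of all genes. BCL2 (ENSG00000171791, chromosome 18, 63123346 to 63320128), which opposes cell death, went from 4.17, 2.47 and 3.44 CPM to 9.30, 12.9 and 13.9 CPM. All combination libraries lay above DMSO (log2 fold change 1.86 ± 0.23 SE, adjusted p = 2.48e-08). The death-promoting BCL2L11 (BIM) also rose, from 65.6 to 107 CPM, and BIK fell from 51.4, 53.6 and 59.9 CPM to 28.7, 21.7 and 21.8 CPM. Without DMSO replicate 1 or combination replicate 2, 2 of the family fell.

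**Figure D4:**
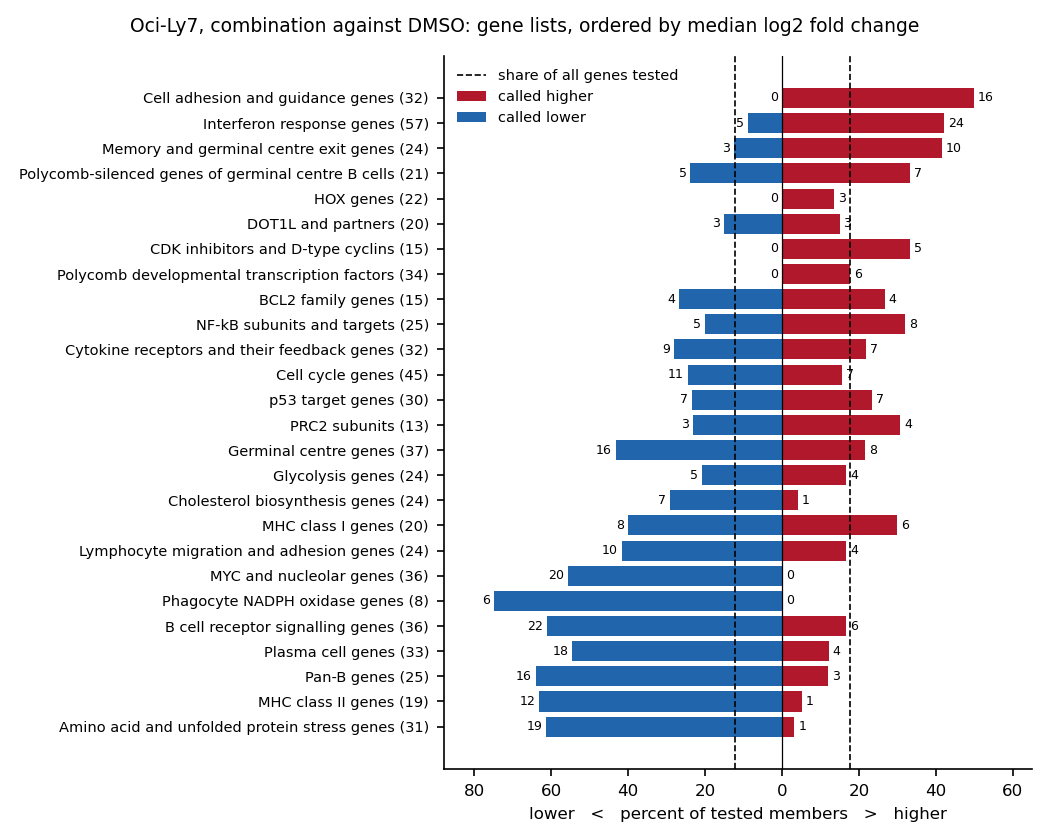
Percent of tested members that rose (red, to the right) or fell (blue, to the left) with the combination in Oci-Ly7, with the number at each bar and the number tested in brackets, for 26 lists; lists of markers of other cell types are not drawn. Dashed lines mark the shares of all genes tested, 17.7% and 12.2%, which are not matched for level. Of the lists drawn, adhesion and guidance, interferon and memory genes lie furthest right. NADPH oxidase, pan-B and MHC class II genes lie furthest left.

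Some markers of other cells rose as well, beside 17.7% of all genes tested. Of 7 myeloid markers tested 3 rose, of 8 fibroblast and endothelial markers 4, of 4 NK and cytotoxic markers 2, of 7 neuronal markers 2, of 7 epithelial markers 1 and of 1 erythroid or megakaryocyte marker 0, and none of these fell. The lists held 20, 18, 13, 18, 15 and 16 markers in that order, and the rest were not tested. Markers near 0 in DMSO can hardly fall and can pass the filter through groups in which they are higher. The shares that rose are therefore no separate support for a rise. In the fit on the 6 compared libraries 1 myeloid marker rose. No epithelial marker rose without DMSO replicate 1, 2 or 3 or combination replicate 1 or 2, and 1 neuronal marker rose without DMSO replicate 1 or 3 or combination replicate 2 or 3. T cell markers went both ways, with 4 of 16 higher and 3 lower. TRAC, the T cell receptor alpha constant gene, fell from 50, 58.0 and 48 CPM to 14.9, 8.17 and 7.27 CPM, while CD3G, a chain of the same receptor complex, rose from 3 counts over the DMSO libraries to 2.20, 3.92 and 2.01 CPM. Some defining markers of these cells were at or near 0 in all 6 libraries: CD3D, GNLY and KRT19 had 0 counts, EPCAM was at most 0.0564 CPM, LYZ at most 0.257 CPM and CD14 at most 0.165 CPM. Others were not. COL1A1, a fibroblast collagen, was at 0.0674 to 0.274 CPM in DMSO and 2.09 to 3.41 CPM with the combination, and MAP2, a neuronal microtubule protein, at 0.337 to 0.695 CPM and 2.37 to 4.73 CPM. The haemoglobin gene HBB had 0 counts in DMSO and 0.62 to 0.946 CPM with the combination. The 1 erythroid or megakaryocyte marker tested was another gene, with a log2 fold change of -1.03 that did not pass. The myeloid marker CSF1R and the fibroblast marker DCN also had 0 counts in DMSO. With the combination CSF1R was at 0.282 to 0.772 CPM and DCN at 0.169 to 0.532 CPM. SYP, a synaptic vesicle protein, was at 4.86 to 8.23 CPM and 8.36 to 9.7 CPM, and the T cell receptor chain CD3E at 2.64 to 3.23 CPM and 1.92 to 3.13 CPM. Summed levels ran from 4.34 to 4.99 CPM in DMSO and from 6.88 to 12.2 CPM with the combination for myeloid markers. For fibroblast and endothelial markers they ran from 72.5 to 78.4 CPM and from 104 to 124 CPM, most of it PECAM1, which went from 73.9 to 106 CPM. Neuronal markers summed to 10.2 to 11 CPM and 14.6 to 17.9 CPM. The part of other cell types in the adhesion, guidance and developmental genes was not tested.

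RAG2 (ENSG00000175097, chromosome 11, 36575574 to 36598279), a subunit of the recombinase that rearranges antigen receptors in early B cells, went from 0.834, 1.98 and 0.943 CPM to 43.3, 76.2 and 48.1 CPM. The rise was 42.6-fold without overlap (log2 fold change 5.41 ± 0.23 SE, adjusted p = 3.13e-20). EZH2i alone gave 11.3, 16.5 and 11.8 CPM and DOT1Li alone 3.10, 6.08 and 4.04 CPM. RAG1, IGLL1, DNTT, VPREB1, IGHM, IGHD and IGKC were looked up after the values were seen. RAG1, the other subunit, went from 0.139, 0.110 and 0.270 CPM to 2.88, 6.17 and 4.32 CPM; it overlaps RAG2 in position, and the strand setting of the counting is not given in the sources used here. IGLL1, a part of the surrogate light chain of precursor B cells, went from 0.139, 0.110 and 0.135 CPM to 38.3, 73.7 and 42.9 CPM (log2 fold change 8.58 ± 0.40 SE, adjusted p = 1.39e-18). DNTT, the polymerase that adds bases at receptor joints, went from 0.498 to 3.31 CPM. VPREB1, the other part of the surrogate light chain, had 1 count over the 3 combination libraries and 0 in DMSO. The immunoglobulin gene IGHD rose from 35.2 to 67.3 CPM and IGHM fell from 3160 to 2460 CPM. IGKC fell from 1270 to 1070 CPM (adjusted p = 0.00769), a call lost without DMSO replicate 1 (adjusted p = 0.0508).

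The single treatments share the DMSO libraries with the combination, so their values are given side by side. With DOT1Li alone 306 genes rose (1.72%) and 208 fell (1.17%), and with EZH2i alone 1559 rose (8.78%) and 874 fell (4.92%). The DOT1Li numbers moved with single libraries: without DOT1Li replicate 1, 514 rose and 460 fell, and without DOT1Li replicate 2, 81 rose and 34 fell. In the lists led by falls the single counts were smaller, with 0 of 19 MHC class II genes lower with DOT1Li and 6 with EZH2i, 3 and 12 of 36 B cell receptor genes, and 0 and 2 of 36 MYC and nucleolar genes. Of the 57 interferon genes 2 rose with DOT1Li and 5 with EZH2i, and of the 32 adhesion and guidance genes 3 and 7.

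Against the sum of both single effects on the log2 scale, 7 genes (0.0394%) were above and 2 (0.0113%) below at an adjusted p under 0.05. LAPTM5, a lysosomal protein that lowers B cell receptor levels, was at 151, 175 and 134 CPM in DMSO, 141, 133 and 104 CPM with DOT1Li, 55.0, 69.5 and 63.6 CPM with EZH2i and 109, 145 and 105 CPM with the combination. Its fall with EZH2i alone was thus smaller with both compounds, a departure of 1.22 ± 0.16 SE (adjusted p = 4.23e-05). DGKA, a diacylglycerol kinase, and PDLIM1, a LIM domain protein, departed by 0.91 and 1.06, also with falls under EZH2i alone, while the combination did not pass for either (log2 fold changes of -0.02 and 0.25). XBP1 departed by 1.02 ± 0.16 SE (adjusted p = 0.000698), at 326, 332 and 265 CPM with EZH2i alone. The other 3 above were GDF11, LPIN1 and ELK3; of the 2 below, TMCC3 and LSS, LSS is an enzyme of cholesterol synthesis that departed by -0.65 ± 0.14 SE (adjusted p = 0.047). GDF11, LPIN1, ELK3 and TMCC3 are named after their values were seen. PRDM1 did not pass (0.75 ± 0.40 SE, adjusted p = 0.988), which does not show additivity. Without combination replicate 1, 31 genes were above and 48 below. Fitted on the 12 Oci-Ly7 libraries alone, LAPTM5 (adjusted p = 0.166), DGKA (0.291), XBP1 (0.334) and PDLIM1 (0.438) did not pass. The LSS call was lost without any of DMSO replicate 2, DOT1Li replicate 1 or 2, EZH2i replicate 1 or 2 and combination replicate 2 or 3, with adjusted p-values from 0.0738 to 0.361.

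The combination effect in Oci-Ly7 was tested against the mean effect in Oci-Ly8, SUDHL6 and Oci-Ly18. In those lines the combination raised 18.1%, 22.6% and 21.1% of genes and lowered 16.9%, 16.8% and 14%. The Oci-Ly7 effect was higher in 1744 genes (9.83%) and lower in 1449 (8.16%), and 88.5% of genes had counts in the compared groups of all lines and could be called. PRDM1 rose more in Oci-Ly7, by 2.67 ± 0.33 SE on the log2 scale (adjusted p = 5.46e-08), with effects of 1.44, 0.72 and 1.26 in Oci-Ly8, SUDHL6 and Oci-Ly18. RAG2 differed by 5.36 ± 0.25 SE (adjusted p = 7.41e-19), with effects of 0.47, -0.18 and -0.13 in these lines. NXN, a thioredoxin family protein, and OPTN, an autophagy receptor, differed by 4.37 and 3.60. NXN went from 1.32, 1.81 and 1.89 CPM to 21.3, 31.2 and 24.7 CPM in Oci-Ly7, and OPTN from 0.625, 1.15 and 1.08 CPM to 8.51, 13.5 and 12.4 CPM. SMAD1, a transducer of bone morphogenetic protein signals, rose in Oci-Ly7 from 34.1 to 79.2 CPM and fell in SUDHL6 and Oci-Ly18, a difference of 2.02 ± 0.10 SE.

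Several genes of B cell function fell in Oci-Ly7 and rose in at least 1 other line. MS4A1 differed by -1.52 ± 0.11 SE (adjusted p = 2.55e-14), with an effect of 2.94 in SUDHL6. IRF4 differed by -1.61 ± 0.15 SE, with a rise of 1.46 in Oci-Ly8, and CIITA by -1.05 ± 0.12 SE, with effects of 0.99, 0.31 and 0.30. Of 19 MHC class II genes 13 were lower against the other lines and 0 higher, and of 36 B cell receptor genes 16 lower and 4 higher. BCL6 differed by -0.65 ± 0.14 SE, but the other lines are not alike: BCL6 rose by 0.33 in Oci-Ly8 and 0.88 in SUDHL6 and fell by 1.24 in Oci-Ly18. Cell cycle genes stood the other way, with 26 of 45 higher in Oci-Ly7 than in the mean of the other lines and 0 lower. Within Oci-Ly7 they did not rise as a list: 7 rose and 11 fell, with a median of -0.01. Over all genes tested 9.83% were higher against the other lines and 8.16% lower. The genes with the smallest p below the other lines were MTCL1, MYO1G, FAM81A and GM2A, with differences of -2.09, -1.31, -1.93 and -1.27. All 4 fell in Oci-Ly7 and rose in each of the other 3 lines.

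**Figure D5:**
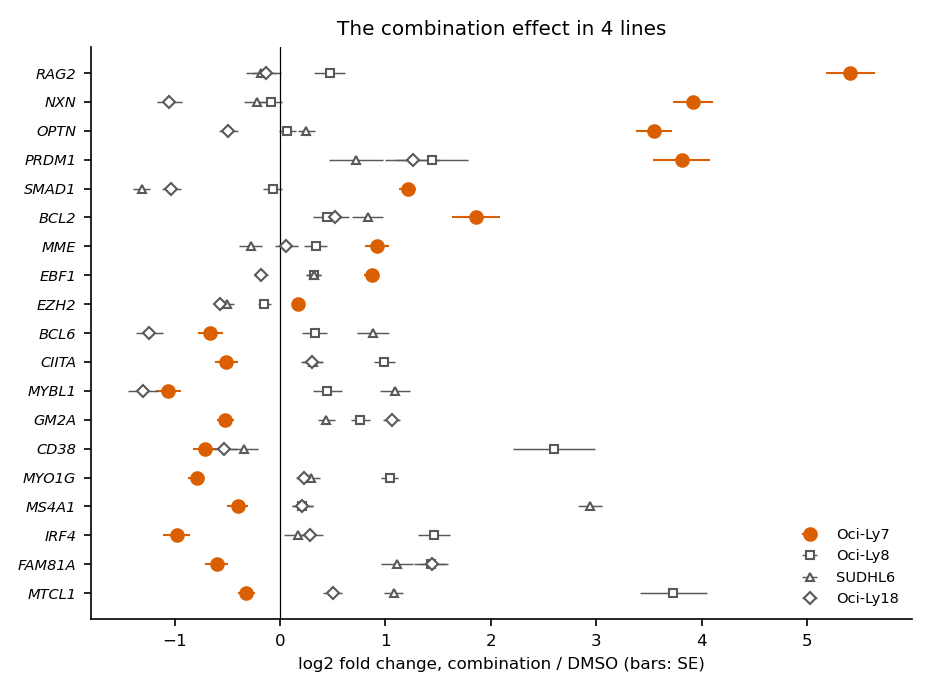
Log2 fold change of the combination over DMSO (horizontal axis; bars are SE) for 19 genes in Oci-Ly7 (filled circles) and in Oci-Ly8, SUDHL6 and Oci-Ly18 (open symbols). RAG2, NXN, OPTN and PRDM1 lie furthest right in Oci-Ly7, while MTCL1, FAM81A, MYO1G and GM2A are below 0 in Oci-Ly7 and above 0 in each of the other 3 lines.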

How the data were processed

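RNA was sequenced from poly(A) stranded libraries, per the labels' protocols. The authors deposited 1 table of raw counts per gene for 48 libraries; the submitters' processing notes name STAR, DESeq2 and GRCh38. How reads were counted (program, strand, annotation) and which versions were used is not given in the sources used here. Genes were kept with edgeR's filterByExpr over the 16 groups (17749 of 37706), scaled by TMM and fitted over all 48 libraries with edgeR 4.0.16 (quasi-likelihood, robust, 1 mean per line and treatment) in R 4.3.3. P-values were adjusted by Benjamini-Hochberg over all genes tested, with calls at 0.05. The script was tested on simulated data. Named genes are a fixed panel, the 8 protein-coding genes with the largest called change in each direction at 5 CPM or more in DMSO, the 8 with the largest bounds among those at 0 counts in DMSO, up to 3 called members of each list by smallest adjusted p, and the 4 smallest p-values in each direction against the other lines and against additivity. Other list members given by their means alone were chosen after their values were seen. Members and lists were chosen with earlier results of these data known. Alternatives were RLE scaling, DESeq2 1.42.0, no filter, a replicate block, fewer libraries, a stricter threshold and leaving out each of the 12 Oci-Ly7 libraries.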

Additional observations from a re-analysis of the deposited data

Results flagged for a closer look

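In the genes below the effect of the combination in Oci-Ly7 differed from the mean effect in Oci-Ly8, SUDHL6 and Oci-Ly18 at an adjusted p under 0.05 in edgeR's test of that difference, and values are differences on the log2 scale. Oci-Ly7 was higher by 5.36 for RAG2, 4.37 for NXN, 3.60 for OPTN, 2.67 for PRDM1 and 2.02 for SMAD1. It was higher by 1.26 for BCL2, 0.88 for MME, 0.72 for EBF1, 0.58 for EZH2 and 0.38 for XBP1. For the last 2 the effect within Oci-Ly7 was 0.17 and 0.04.

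Differences below 0 were -2.09 for MTCL1, -1.93 for FAM81A, -1.61 for IRF4, -1.52 for MS4A1, -1.31 for MYO1G, -1.29 for CD38 and -1.27 for GM2A. They were -1.14 for MYBL1, -1.05 for CIITA and -0.65 for BCL6. One Oci-Ly8 DMSO library, replicate 3, stood apart from the others of its group and enters these differences.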

How the results depend on the processing

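Leaving out 1 Oci-Ly7 library at a time (12 settings; libraries of the other lines were not left out singly) gave 2515 to 3159 genes higher and 1573 to 2170 lower with the combination, 1090 to 1356 higher and 205 to 285 lower by at least 1 on the log2 scale, and 154 to 216 risen from 0 counts. It gave 81 to 514 higher and 34 to 460 lower with DOT1Li, 1130 to 1583 and 592 to 876 with EZH2i, 1408 to 1750 and 1181 to 1442 against the other lines, and 5 to 31 above and 0 to 48 below additivity. The fit on 12 libraries gave 3062 genes higher and 2858 lower with the combination. It also gave 28 genes risen from 0 counts, 1491 lower with EZH2i, and 3 above and 0 below additivity. The fit on 6 libraries gave 2963 higher and 2838 lower, 786 higher by at least 1 and 22 risen from 0 counts. Without Oci-Ly8 DMSO and DOT1Li replicate 3, 3671 rose and 2635 fell with the combination in Oci-Ly7. In that setting 481 rose and 447 fell with DOT1Li, 1403 fell with EZH2i, and 27 were above and 17 below additivity. An adjusted p of 0.01 gave 115 risen from 0 counts, 142 and 92 with DOT1Li, 996 and 515 with EZH2i, 1125 and 948 against the other lines, and 0 below additivity. Departures above and below additivity were 18 and 15 with DESeq2 and 32 and 44 with no filter; RLE scaling gave 0 below. The replicate block gave 3578 higher and 2672 lower with the combination, 560 and 496 with DOT1Li, 1386 lower with EZH2i, and 36 and 50 for additivity; MYC passed with the block (adjusted p = 0.00782). Same-numbered DMSO and combination libraries had correlated deviations of 0.127, 0.094 and 0.181, a hint from the data and not the design. Other pairings gave -0.129 to -0.021. Deviations from a group mean sum to 0, so values below 0 there largely follow from those above 0. They are no separate support for pairing. Leaving out 1 library, PAX5 ran from -0.06 to 0.01 (above 0 without combination replicate 3) and XBP1 from -0.08 to 0.13 (below 0, at -0.05 and -0.08, without DMSO replicate 3 and combination replicate 2); neither passed. The cause of these shifts was not tested. Depth limits calls among genes under 0.5 CPM.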
